A study of Mus musculus with 12 samples.

Results

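The genes described here are 8 of the 49492 genes in the deposited count table of mouse skin. They encode the receptor of gamma delta T cells of the epidermis and signalling chains that carry T cell receptors to the cell surface. They are the gamma constant gene Trgc1, the delta constant gene Trdc, the delta variable segment Trdv4, the gamma variable segment Trgv5, the CD3 chain genes Cd3e, Cd3g and Cd3d, and the zeta chain gene Cd247. The genes were chosen by name after earlier results of these data had shown lower values of several of them in UV-exposed skin. Their differences between UV and control are therefore given as descriptions, with no test. All 8 were found, 6 under their current symbol and 2 under an older one (Tcrg-C1 for Trgc1 and Tcrg-V5 for Trgv5).

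The samples were skin of control mice and of UV-exposed mice, with 3 samples per condition. From each sample came an input library of the total RNA and an IP library of the RNA bound by an antibody against N6-methyladenosine (m6A), a methyl mark on RNA, which makes 12 libraries in all. The sources used here give neither strain, genotype, age and sex nor the type, dose and timing of UV, and do not state that the samples of a condition are separate animals. The p-values below measure the spread between these samples, which may be technical. The series title concerns the m6A writer subunit KIAA1429 and collagen synthesis in photoaging, so the T cell genes lie outside its stated question.

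The epidermis of the mouse holds a resident population of gamma delta T cells with a dendritic shape, the dendritic epidermal T cells. They settle in the skin before birth, renew themselves there and nearly all carry the same receptor, built from Trgv5 joined to Trgc1 and from Trdv4 joined to Trdc. The receptor chains have almost no cytoplasmic part, and signals pass through CD3 chains and the zeta chain. Alpha beta T cells also use CD3 chains and the zeta chain, with other receptor genes, and natural killer cells use the zeta chain with other receptors. In bulk skin, fewer T cells and less receptor RNA per T cell cannot be told apart.

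The receptor genes lie in the gamma locus on chromosome 13 and in the delta locus on chromosome 14 of GRCm38. The deposited table placed Trgv5 at 19192278 to 19192725 and Trgc1 at 19214103 to 19217024 on the plus strand of chromosome 13. Trdv4 lay at 54074905 to 54075515 and Trdc at 54142851 to 54148868 on the plus strand of chromosome 14. The CD3 genes form a cluster on chromosome 9, with Cd3g at 44969572 to 44980431 and Cd3e at 44998740 to 45009627 on the minus strand and Cd3d at 44981786 to 44987339 on the plus strand. Cd247 stood apart, at 165788681 to 165877277 on the plus strand of chromosome 1. RefSeq (GRCm38.p6) held a promoter for 4 of the 8 genes. The windows of 250 bases before the transcript start in the RefSeq promoter table are shown because these 4 genes differ in how far their level moved with UV, Cd247 least. At its 3′ end the Cd3e window reaches into the Cd3e row of the count table, and the RefSeq gene of Cd247 begins farther upstream of its window, at 165779952. Each is written 5′ to 3′ on the strand of its gene, and capitals mark the motifs searched.
Cd3e, chr9:45009612-45009861, minus strand: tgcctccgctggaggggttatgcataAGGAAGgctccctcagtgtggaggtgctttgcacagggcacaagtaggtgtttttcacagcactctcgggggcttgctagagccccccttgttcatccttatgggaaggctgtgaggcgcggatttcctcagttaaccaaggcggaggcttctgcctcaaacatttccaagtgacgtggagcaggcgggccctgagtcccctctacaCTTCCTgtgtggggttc
Cd3g, chr9:44980432-44980681, minus strand: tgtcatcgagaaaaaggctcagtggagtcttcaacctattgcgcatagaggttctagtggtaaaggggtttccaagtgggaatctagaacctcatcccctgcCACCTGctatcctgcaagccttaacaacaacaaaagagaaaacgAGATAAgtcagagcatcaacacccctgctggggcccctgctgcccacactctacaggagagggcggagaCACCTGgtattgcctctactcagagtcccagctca
Cd3d, chr9:44981536-44981785, plus strand: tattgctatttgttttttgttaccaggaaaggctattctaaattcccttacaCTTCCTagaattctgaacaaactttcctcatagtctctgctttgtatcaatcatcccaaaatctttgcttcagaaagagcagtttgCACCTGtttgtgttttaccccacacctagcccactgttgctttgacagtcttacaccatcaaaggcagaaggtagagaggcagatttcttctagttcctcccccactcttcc
Cd247, chr1:165788431-165788680, plus strand: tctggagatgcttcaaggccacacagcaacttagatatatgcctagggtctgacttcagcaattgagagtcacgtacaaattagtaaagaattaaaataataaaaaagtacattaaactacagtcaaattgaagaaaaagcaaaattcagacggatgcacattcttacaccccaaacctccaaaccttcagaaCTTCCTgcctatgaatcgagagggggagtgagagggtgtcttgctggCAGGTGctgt

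The start sites of Cd3g and Cd3d were 1355 bases apart and pointed away from each other, so the Cd3g and Cd3d windows lie in the stretch between them. Motifs of 4 families of lymphocyte transcription factors were searched on both strands, and no matches overlapped. The Ets core AGGAAG, with its reverse CTTCCT, was found 2 times in the Cd3e window, 1 time before Cd3d and 1 time before Cd247. Of the 2 Cd3e matches, the one nearer the 3′ end lies within the RefSeq gene, whose highest base is 45009663. Of 32851 RefSeq promoter windows of the same length, 29.5% held the Ets core. The E-box CAGNTG, with its reverse CANCTG, was found 2 times before Cd3g and 1 time each before Cd3d and Cd247, against 44.8% of windows. The Gata motif AGATAA, with its reverse TTATCT, was found 1 time, before Cd3g, against 9.99% of windows. The Runx motif TGTGGT, with its reverse ACCACA, was in none of the 4 windows and in 14.0% of all.

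The libraries held 24126662 to 92163619 reads in genes. Levels are given as CPM, the read count of a gene as a share of its library after scaling with TMM factors. In UV against control, 5.83% of 24099 genes tested were called in input and 2.50% of 22789 in IP, as background to what follows. Of the input calls, 51.9% were higher in UV with TMM and 30.9% with library size only. The read counts of the receptor genes were low, so that for Trdc, Trgv5 and Cd3d a library held between 0 and 54 reads. All 8 genes passed the filter on low counts in the input libraries and 7 in the IP libraries, where Trgv5 did not pass. Both counts include genes that passed through the control libraries.

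The question here is how each gene of the receptor complex stood in UV and control skin. The receptor chain genes were lower in every UV input library than in every control input library. Trgc1, the constant part of the gamma chain, measured 1.81, 2.21 and 3.13 CPM in control input and 0.16, 0.18 and 0.21 CPM in UV input. Its groups did not overlap, and the log2 change of UV against control was −3.67 (SE 0.31, n = 3 per group), or 12.7-fold lower in UV. Trdv4, the variable segment of the delta chain, measured 0.91, 2.07 and 1.41 CPM in control and 0.21, 0.13 and 0.12 CPM in UV. Control replicate 1 was the lowest control library for this gene and still lay above all UV libraries (log2 change −3.26, SE 0.42). Trdc, the constant part of the delta chain, measured 0.48, 0.93 and 0.87 CPM in control and 0.16, 0.09 and 0.06 CPM in UV. The UV libraries held 6, 5 and 4 reads of it, and the log2 change was −2.92 (SE 0.47).

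Trgv5, the variable segment that marks the epidermal gamma delta T cells, was not detected in any UV library. Its control input libraries held 22, 13 and 16 reads, or 0.33, 0.46 and 0.26 CPM, and all 3 UV input libraries held 0. With a floor of 3 counts over the UV group, Trgv5 was at least 17.3-fold lower in UV (51 reads against 0). In the IP libraries of the same samples it held 15, 10 and 10 reads in control and 0 in each UV library, at least 13.7-fold lower with the same floor. Most low counts were even numbers, as when each mate of a read pair is counted, so a floor of 6 counts, or 3 read pairs, was added after seeing the data. With it the bounds were 8.64-fold in input and 6.87-fold in IP. Both floors cover counting error alone.

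The CD3 chain genes were lower in UV as well. Cd3e, whose product pairs with the gamma and delta CD3 chains, measured 2.19, 2.64 and 3.02 CPM in control input and 0.40, 0.26 and 0.33 CPM in UV input (log2 change −3.01, SE 0.25). Cd3g measured 4.47, 5.34 and 5.43 CPM in control and 0.80, 0.64 and 0.78 CPM in UV (−2.79, SE 0.18). Neither gene's groups overlapped, and Cd3g had the smallest SE of the 3 CD3 genes. Cd3d measured 0.32, 0.64 and 0.43 CPM in control and 0.29, 0.04 and 0.09 CPM in UV. UV replicate 1, with 11 reads, lay just below the lowest control library, and the log2 change of −1.81 (SE 0.64) became −2.74 without that sample.

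Cd247, the zeta chain gene, differed from the other members. It measured 10.6, 12.1 and 10.1 CPM in control input and 9.04, 10.1 and 8.66 CPM in UV input, and UV replicate 2 lay within the control range. Its log2 change was −0.24 (SE 0.11). The level of Cd247 was 1.86 to 2.37 times that of Cd3g in the control input libraries and 11.1 to 15.8 times in the UV input libraries, as ratios of CPM. The ratio of Cd3e to Cd3g lay between 0.40 and 0.56 in all 6 input libraries. Of the 5329 exon bases of Cd247, 3007 are shared with exons of Pou2f1 on the opposite strand and 206 with Gm16565 on its own strand. The Pou2f1 row held 1078 to 2460 reads in the input libraries, more than the 339 to 702 of Cd247. The libraries were made with a kit that keeps strand, but the sources do not say whether the counting used strand, so reads of Cd247 and Pou2f1 cannot be told apart in the shared bases.

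**Figure D1:**
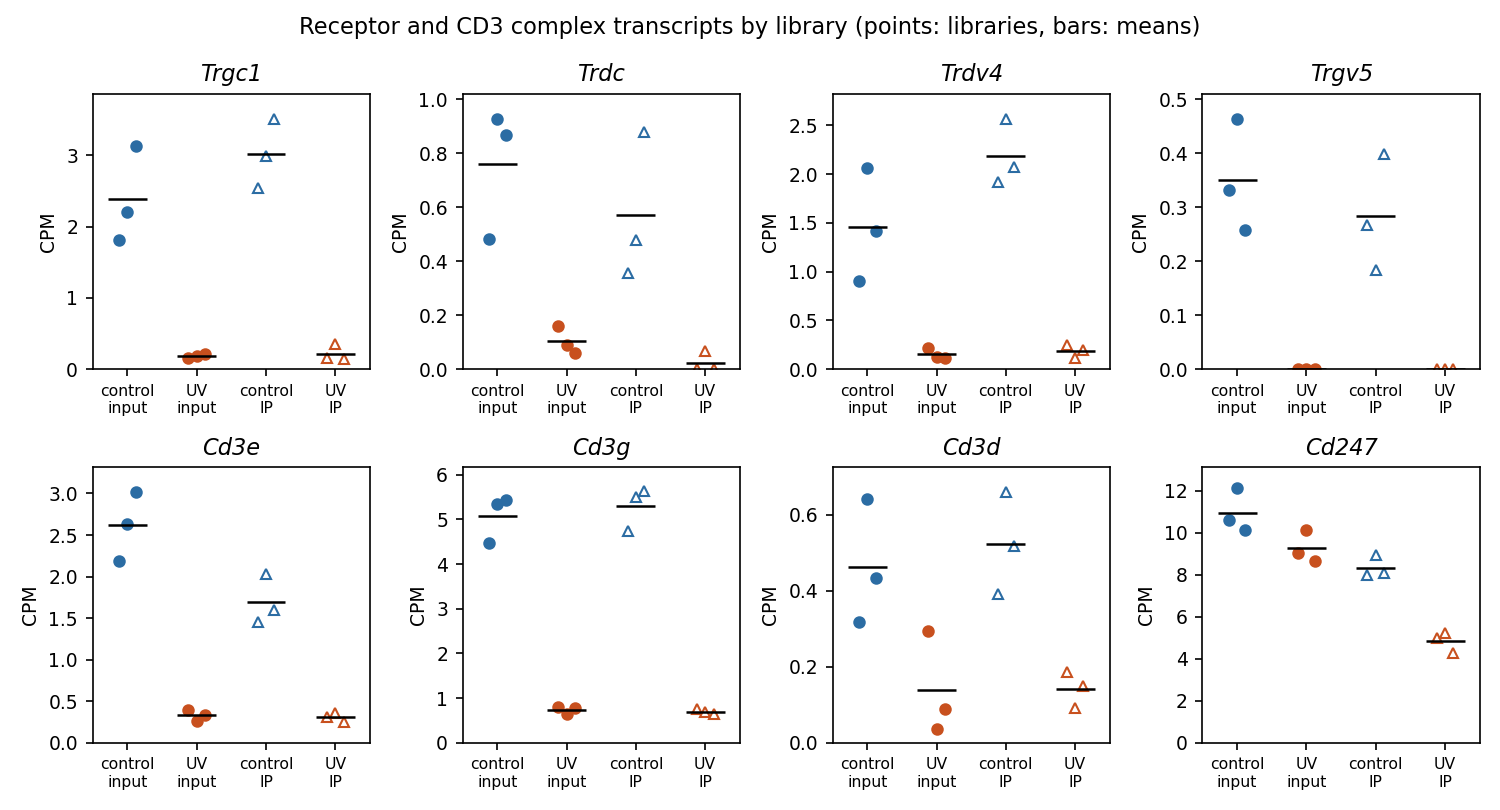
Levels of the 8 genes in CPM (vertical axes, linear and starting at 0, with a scale of their own in each panel) in the control and UV input libraries (filled circles) and IP libraries (open triangles), with 3 libraries per group and bars at the means. Trgc1 ran from 1.81 to 3.13 CPM in control input and from 0.16 to 0.21 CPM in UV input, Trgv5 was at 0 in all UV libraries, and Cd247 alone overlapped between the input groups.

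The IP libraries, made from the same samples, gave like differences, and they are no separate evidence since they hold the same RNA. Trgc1 measured 2.54, 2.99 and 3.51 CPM in control IP and 0.16, 0.35 and 0.15 CPM in UV IP (log2 change −3.60, SE 0.33, or −4.26 without UV replicate 2). Trdv4 measured 1.92, 2.57 and 2.08 CPM in control IP and 0.25, 0.11 and 0.20 CPM in UV IP (−3.67, SE 0.33). Trdc had reads in 1 of the 3 UV IP libraries, replicate 2, at 0.07 CPM, against 0.36, 0.48 and 0.88 CPM in control IP (−3.87, SE 0.78), and without UV replicate 2 the UV group has 0 reads of it in IP. The CD3 genes had log2 changes in IP of −2.42 (Cd3e, SE 0.27), −2.93 (Cd3g, SE 0.17) and −1.97 (Cd3d, SE 0.44). Cd247 measured 7.97, 8.91 and 8.10 CPM in control IP and 4.99, 5.25 and 4.26 CPM in UV IP, without overlap (−0.79, SE 0.13).

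Every UV library lay below every control library for 7 of the 8 genes in input, all but Cd247, and for 8 of 8 in IP. Over all genes tested, 15.0% of 24099 genes showed this in input and 11.7% of 22789 genes in IP. Since these contrasts chose the genes, nothing is read from the difference. The median log2 change over all genes tested was −0.02 in input. Across the alternative settings, the log2 change of Trgc1 in input stayed between −3.83 and −3.40, that of Cd3g between −2.89 and −2.69 and that of Cd247 between −0.34 and −0.17.

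The order of the genes by level per length was compared within each group. In control input Trdv4 was highest at 3.29 ± 1.31 CPM per kb (SD, n = 3), followed by Trgc1 at 2.58 ± 0.73, Cd247 at 2.05 ± 0.19, Cd3g at 1.55 ± 0.16, Trgv5 at 1.03 ± 0.31, Cd3e at 0.641 ± 0.102, Cd3d at 0.256 ± 0.090 and Trdc at 0.196 ± 0.062 CPM per kb. Trdv4, Trgc1 and Cd247 overlapped from one to the next, as did Cd3d and Trdc, while the other neighbours did not overlap. In UV input Cd247 came first at 1.74 ± 0.14 CPM per kb and Trdv4 next at 0.346 ± 0.117. Cd3g at 0.226 ± 0.026 and Trgc1 at 0.199 ± 0.027 overlapped, as did Cd3e at 0.0805 ± 0.0176, Cd3d at 0.0771 ± 0.0746 and Trdc at 0.0268 ± 0.0132 from one to the next, and Trgv5 was last at 0. The row of Trdc in the count table ends at base 54148868 and the RefSeq gene at 54146108, so the longer model of 3865 exon bases lowers its level per length. Trdc also shares 207 exon bases with Trdv5 and 96 with Gm43434, both on the opposite strand.

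The table held 21 other gamma and delta receptor segments, whose reads are set beside those of the members. Reads were counted per segment and do not show which segments were joined in a receptor. Of these, 13 had at least 1 read in the input libraries, 7 had none in any library and 3 passed the filter in input. The epidermal segment Trgv5 held 51 of the 126 reads of gamma variable genes in the control input libraries and 0 of 36 in the UV input libraries. Trgv2, another gamma variable segment, held 54 reads in control input and 28 in UV input. Trdv4 held 206 of the 209 reads of delta variable genes in control input and 23 of 29 in UV input, and Trdv5 held 3 and 6. Trgc1 held 377 of the 509 reads of gamma constant genes in control input and 30 of 100 in UV input, against 88 and 62 for Tcrg-C2. These counts are sums over 3 libraries of unequal depth. Trgc1, Tcrg-C2 and Tcrg-C3 are near-identical copies, and reads that match several of them could have been split in counting, so the values of Trgc1 and Tcrg-C2 are uncertain to that degree.

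Of the 3 other segments tested in input, 0 were called by edgeR at an adjusted p below 0.05, and Trgv2 was the 1 with an unadjusted p below 0.05. Tcrg-C2 had a log2 change of −0.52 (SE 0.39, adjusted p = 0.452), Trgv2 of −0.93 (SE 0.39, adjusted p = 0.180) and Tcrg-C4 of −2.23 (SE 0.69, adjusted p = 0.0940). In the IP libraries Tcrg-C2 fell, from 1.44, 2.02 and 2.08 CPM to 0.44, 0.52 and 0.40 CPM (log2 change −1.99, SE 0.26, adjusted p = 0.0106). That call ended without UV replicate 1 (adjusted p = 0.0540) and without UV replicate 2 (0.0506), within a range of 7.6e-07 to 0.0540 over its alternatives.

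**Figure D2:**
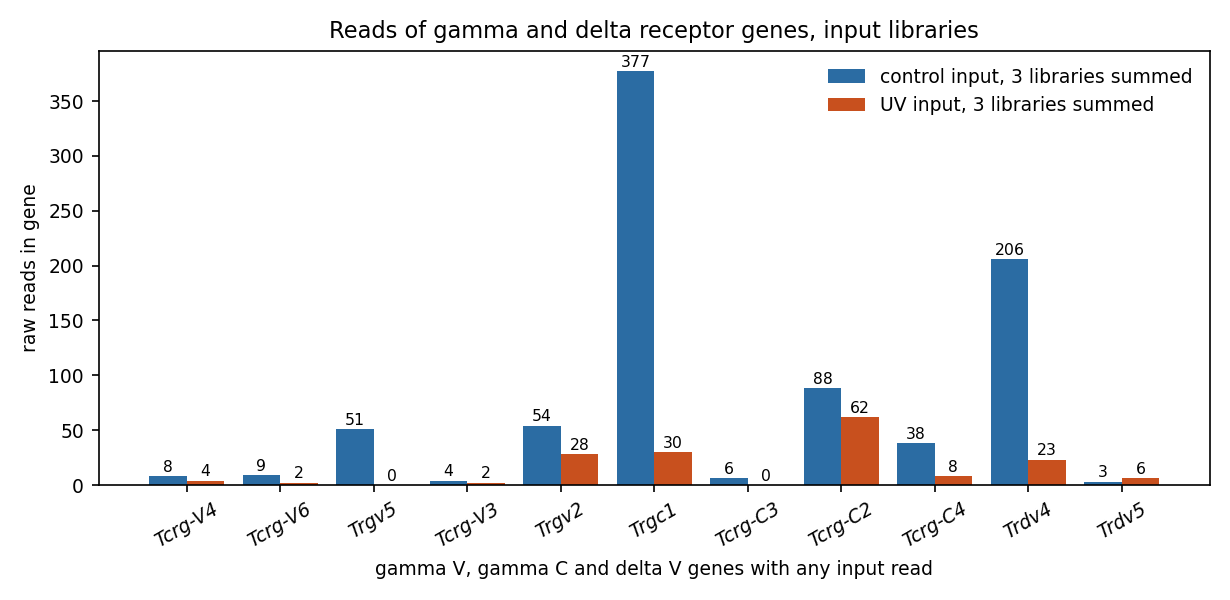
Raw reads, summed over 3 libraries per group, in the gamma variable, gamma constant and delta variable genes with any input read (vertical axis from 0), for control input and UV input. Trgc1 had 377 reads in control and 30 in UV and Trdv4 206 and 23, whereas Tcrg-C2 had 88 and 62.

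Genes of alpha beta T cells, which also use CD3 chains, were set beside these values. The beta constant genes Trbc1 and Trbc2 had log2 changes in input of 0.50 (SE 0.26, adjusted p = 0.265) and 0.29 (SE 0.22, adjusted p = 0.446). Trbc1 averaged 0.652 ± 0.165 CPM in control and 0.958 ± 0.085 CPM in UV, and Trbc2 2.77 ± 0.44 and 3.44 ± 0.86 CPM. The costimulatory receptor gene Icos had 0.60 (SE 0.57, adjusted p = 0.548). Of 11 alpha beta T cell markers tested, 0 were called by edgeR, 1 had an unadjusted p below 0.05 and DESeq2 called 0, and their median log2 change was 0.10. The summed level of the whole list of 14 was 19.4 to 22.7 CPM in control input and 22.1 to 23.6 CPM in UV input, with no marker at 0 in all input libraries. The level of Trgc1 per length was 0.424 to 0.595 times that of Trbc1 and Trbc2 together in control input and 0.0230 to 0.0452 times in UV input. Of the 8 natural killer and innate lymphoid markers 3 were tested and 0 called (0 by DESeq2, 0 at an unadjusted p below 0.05), with a summed level of 3.20 to 3.56 CPM in control and 2.71 to 3.68 CPM in UV.

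Genes that act behind the receptor were taken as a list of 27 signalling genes. Trat1, an adaptor that binds the receptor complex, fell from 0.576 ± 0.096 to 0.0577 ± 0.0425 CPM in input (log2 change −3.43, SE 0.50, adjusted p = 0.0107). Grap2, an adaptor that joins LAT to SLP-76, fell from 2.18 ± 0.11 to 1.12 ± 0.13 CPM (−0.96, SE 0.18, adjusted p = 0.0238). Of 25 genes tested 3 were lower and 0 higher, where 2.81% of all genes were called lower, and the list's median log2 change was −0.33. The count of 3 was 5 with library size only, 6 with DESeq2 and 1 with the replicate block. It was 1 without control replicate 1 or UV replicate 1 and 0 without UV replicate 2 or UV replicate 3. The count called higher was 1 without a low-count filter, with DESeq2 and without control replicate 3, and 0 in the other settings. The call of Trat1 ended without UV replicate 2 (adjusted p = 0.0547) and without UV replicate 3 (0.0526), within a range of 4.3e-05 to 0.0547. That of Grap2 (adjusted p up to 0.0914) ended with the replicate block and without control replicate 1 or any single UV replicate. For UV against control the replicate block joins samples of the same number, and these numbers do not pair control with UV.

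Effector, receptor and homing genes reported for epidermal gamma delta T cells formed a list of 23. Ccr4, a chemokine receptor of skin-homing T cells, fell from 2.84 ± 0.18 to 0.956 ± 0.156 CPM in input (log2 change −1.57, SE 0.19, adjusted p = 0.00526) and kept its call in all 10 alternatives. Prf1, the pore-forming protein perforin, fell from 0.559 ± 0.128 to 0.0615 ± 0.0561 CPM (−2.99, SE 0.60, adjusted p = 0.0290). Cd244, a receptor of the SLAM family on cytotoxic cells, fell from 2.60 ± 0.23 to 1.16 ± 0.22 CPM (−1.16, SE 0.20, adjusted p = 0.0176). Il2rb, the receptor chain shared by IL-2 and IL-15, had −1.48 (adjusted p = 0.0672) and was not called. Of 16 genes tested 3 were lower and 0 higher, where 2.81% of all genes were called lower, with a median log2 change of −0.20. DESeq2 called 5 lower, 2 were lower with the replicate block, and 1 was lower without control replicate 1, UV replicate 1 or UV replicate 3. The call of Prf1 ended with the replicate block and without control replicate 1 or any single UV replicate (adjusted p up to 0.0967). That of Cd244 ended without control replicate 1, UV replicate 1 or UV replicate 3 (up to 0.0766).

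Transcription factors of the gamma delta lineage are also made by other skin cells, and few of them were called. Id3, an inhibitor of E proteins, fell from 15.6 ± 4.3 to 7.62 ± 0.34 CPM in input (log2 change −1.04, SE 0.19, adjusted p = 0.0199), and Gata3, which keratinocytes also express, from 192 ± 22 to 138 ± 9 CPM (−0.48, SE 0.10, adjusted p = 0.0356). Id2 (−0.66, adjusted p = 0.0501) and Zbtb16 (0.72, adjusted p = 0.0743) were not called. Of 19 tested 2 were lower and 0 higher, where 2.81% of all genes were called lower, with a median of −0.25. DESeq2 called 4 lower and 1 higher. The count called higher was also 1 without a low-count filter and without control replicate 2. The 2 calls became 0 without control replicate 1 or any single UV replicate, and 1 without control replicate 2 or with the replicate block. The call of Id3 (adjusted p up to 0.0963) ended in the former and that of Gata3 (up to 0.158) in all of these.

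Keratinocytes make ligands and survival factors for these T cells, and none of the genes tested were called in input. In IP 1 of the 11 tested, Ccl27a, was called lower (−0.89, edgeR adjusted p = 0.0340). It was not called with the replicate block or without control replicate 1, control replicate 2 or any single UV replicate (adjusted p over its alternatives 0.000685 to 0.139). H60c, a ligand of the activating receptor NKG2D, had a log2 change of 0.84 (SE 0.25, adjusted p = 0.0834). It was called without control replicate 3 (1.07, adjusted p = 0.0420), without the low-count filter, with the replicate block and with DESeq2. Over its alternatives the adjusted p ran from 0.00806 to 0.223. Ccl27a, the skin chemokine, had −0.62 in input (SE 0.17, adjusted p = 0.0650). Il7 had 0.71 (adjusted p = 0.155) and the NKG2D ligand gene Ulbp1 0.97 (adjusted p = 0.166). Of 12 tested 0 were called by edgeR and 4 had an unadjusted p below 0.05, while DESeq2 called 2, H60c higher and Ccl27a lower. The median log2 change of the list was 0.15.

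Markers of other skin cells were read in the same libraries. Of 7 Langerhans and dendritic cell markers, 5 were lower in UV input, where 2.81% of all genes were called lower. Among the 5 were Cd207, the langerin gene (−1.60, SE 0.21, adjusted p = 0.00740), and Cd74, the invariant chain of MHC class II (−0.84, SE 0.10, adjusted p = 0.00573). The 5 became 3 with the replicate block and 2 without control replicate 1 or any single UV replicate. The summed level of the list was 154 to 172 CPM in control and 98.1 to 113 CPM in UV. The summed level of 5 keratinocyte markers was 13046 to 43814 CPM in control and 39738 to 61808 CPM in UV, and that of 4 skeletal muscle markers 2959 to 7113 CPM in control and 843 to 2520 CPM in UV. Of the keratinocyte markers 0 were called by edgeR (3 at an unadjusted p below 0.05, 1 by DESeq2, 3 without control replicate 3). Of the 4 muscle markers 1 was lower, where 2.81% of all genes were. That count was 0 with the replicate block and without control replicate 1, control replicate 2 or any single UV replicate, 2 with library size only and 4 without the filter on low counts. No marker of these lists was at 0 in all input libraries. The part of these differences in the lower receptor values was not tested.

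**Figure D3:**
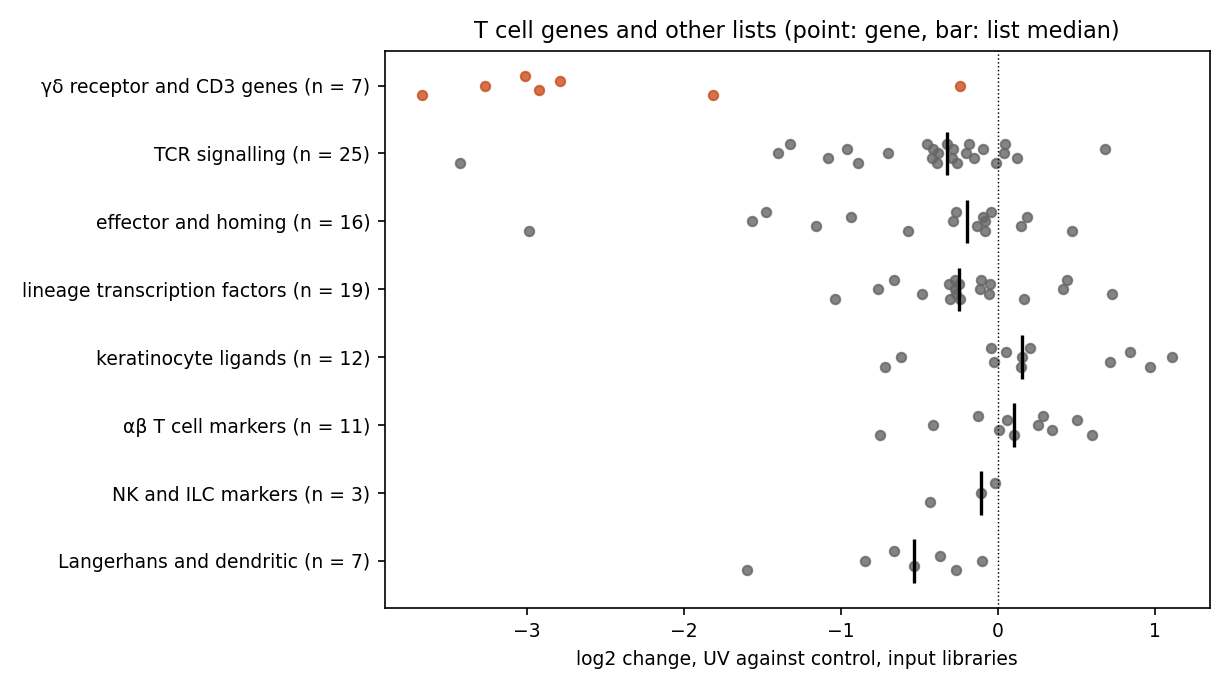
Log2 change of UV against control in the input libraries (horizontal axis) for each tested gene, by list, with a bar at the median of each list other than the receptor complex and a dotted line at 0. Trgv5, at 0 in UV, is left out, and 6 of the 7 other receptor complex genes lie from −3.67 to −1.81 with Cd247 at −0.24, whereas the 11 alpha beta T cell markers have a median of 0.10.

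The genes whose pattern over the 12 libraries was most like that of the receptor complex were found by the root mean square difference of centred log2 CPM from the mean of the 8 genes. Of 14091 candidates, with a median difference of 1.34, the nearest were the cadherin gene Cdh4 (0.33), the acyl-CoA synthetase gene Acsm1 (0.34), the neural adhesion gene Lsamp (0.37), Igfbp3, which encodes a binding protein of insulin-like growth factors (0.50), Cd207 (0.52) and the Mas-related receptor gene Mrgprb3 (0.53). The members' own differences from their mean ran from 0.18 for Cd3g to 1.06 for Cd247. These genes were picked for their likeness, so their log2 changes in input, −2.15 for Cdh4, −2.49 for Acsm1, −2.12 for Lsamp, −1.74 for Igfbp3, −1.60 for Cd207 and −2.58 for Mrgprb3, are descriptions.

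The antibody libraries allow another measure, the level in IP against the level in input within a condition. This contrast did not choose the genes, but it uses the same libraries, so its p-values are not free of that choice. Cd247 and Cd3e were depleted in the control IP libraries relative to the average gene, and Cd247 also in the UV IP libraries. The log2 IP over input of Cd247 was −0.41, −0.44 and −0.32 in control replicates 1 to 3, with a fitted value of −0.39 (SE 0.11, adjusted p = 0.0124, lower in 3 of 3 samples). In UV it was −0.86, −0.95 and −1.02, with a fitted value of −0.94 (SE 0.12, adjusted p = 2.5e-05, lower in 3 of 3). For Cd3e the control samples gave −0.59, −0.37 and −0.92, with a fitted value of −0.62 (SE 0.21, adjusted p = 0.0288, lower in 3 of 3). In UV the Cd3e values of −0.36, 0.51 and −0.39 lay on both sides of 0 (fitted −0.03, SE 0.29, adjusted p = 0.959).

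Of the 8 genes 2 were called in control, where 50.3% of all 25022 genes tested were called (25.8% lower), and with library size only 30.3% of calls were enriched in place of 48.8%. In UV, 1 of the 7 with counts was called, where 49.0% of genes were (24.3% lower), and 38.0% of calls were enriched with library size only in place of 50.4%. Trdv4 had values of 1.09, 0.31 and 0.55 in control, all above 0, and its fitted value of 0.62 (SE 0.30, adjusted p = 0.106) was not called. In the paired fit, with each sample as a block, it was called (0.65, adjusted p = 0.0250), within a range of 0.0250 to 0.338 over the alternatives. Trgc1 had 0.49, 0.44 and 0.16 in control (fitted 0.32, SE 0.26, adjusted p = 0.326). Cd3g was near 0 in all samples, from 0.04 to 0.08 in control and from −0.26 to 0.09 in UV. Trdc had a fitted value of −0.45 (adjusted p = 0.487) in control, Cd3d of 0.22 (adjusted p = 0.745) and Trgv5 of −0.33 (adjusted p = 0.610).

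The call of Cd3e in control ended without a low-count filter (adjusted p = 0.0600), without control replicate 1 (0.0783) and without control replicate 3 (0.207), within a range of 0.0047 to 0.207. The call of Cd247 in control ended without control replicate 1 (adjusted p = 0.0677, the highest of its alternatives, with 0.000606 the lowest). The change of IP over input of Cd247 between UV and control was −0.55 (SE 0.16), a description since it holds the contrast that chose the genes, and 0.0120% of all genes, or 3, were called for such a change (399 with the replicate block). In UV the values of other members lay on both sides of 0. Trgc1 gave −0.04, 0.95 and −0.48, Trdv4 0.23, −0.17 and 0.74, and Cd3d −0.65, 1.31 and 0.74. Among the other segments Tcrg-C2 was called enriched in control (log2 IP over input 1.71, SE 0.31, adjusted p = 0.00051) and not in UV (0.24, adjusted p = 0.603), and the difference of −1.47 (SE 0.46) had an adjusted p of 0.799 over all genes.

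**Figure D4:**
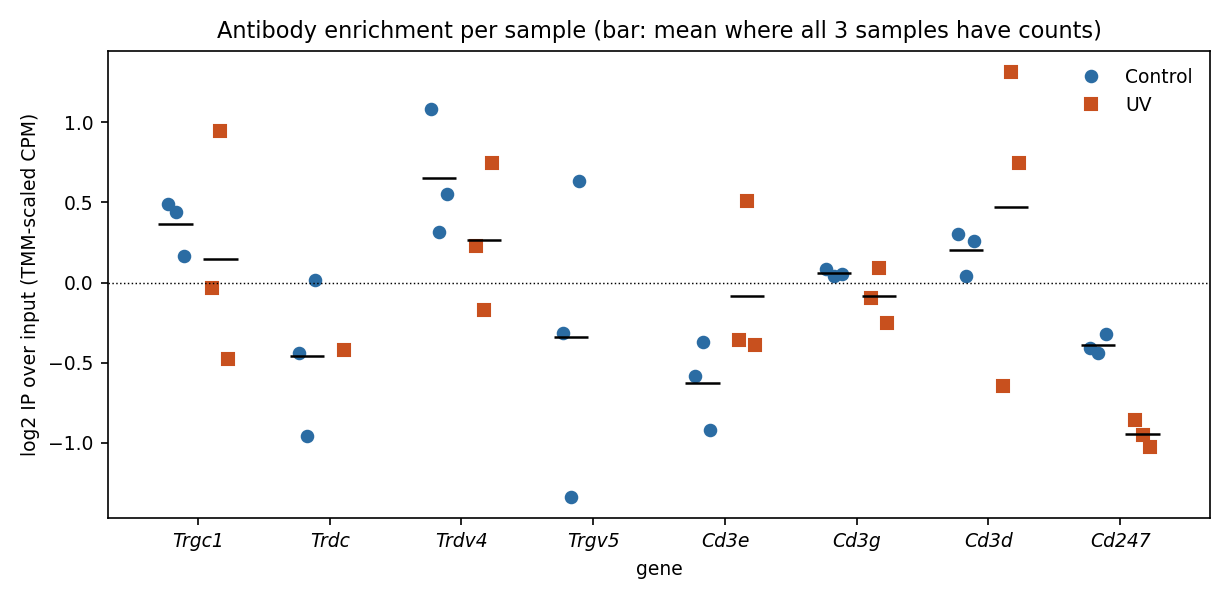
Log2 IP over input per sample (vertical axis, TMM-scaled CPM) for the 8 genes, control samples as circles and UV samples as squares, with bars at the mean where all 3 samples have reads and a dotted line at 0. Cd247 lay from −0.44 to −0.32 in control and from −1.02 to −0.86 in UV, and samples with 0 reads in a library (Trgv5 in UV, Trdc in UV replicates 1 and 3) have no point.

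The authors' deposited table of 42989 m6A peaks assigned 4 peaks to these genes, 3 to Cd247 and 1 to Cd3e, and none to the other 6. The peak of Cd3e, listed in the UV arm, lay at 44999485 to 45000481 on chromosome 9, with 150 of its 997 bases in exons of Cd3e. It held 27, 55 and 18 reads in the control IP and 36, 21 and 80 in the control input libraries, and 9, 14 and 8 in UV IP and 3, 4 and 4 in UV input. The authors' deposited table gave it a log2 fold change of 1.80 with a p-value of 0.00871 and an FDR of 0.563. Log2 IP over input within this peak was 1.81, 1.12 and 1.74 in UV and −0.18, 0.43 and −0.84 in control. These values rest on 11 UV input reads in all and are a description, since the choice of genes used UV against control. A part of Cd3e overlaps an antisense gene by 135 exon bases.

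The peaks of Cd247 on chromosome 1 lay at 165855260 to 165859245 (control arm), 165861716 to 165861896 (control arm) and 165861746 to 165861866 (UV arm), of which the last lies inside the second. The authors' deposited table gave the first a log2 fold change of −0.69 (FDR 0.838), the second −0.30 (FDR 0.999) and the third −0.31 (FDR 0.999). The peak at 165855260 to 165859245 has 438 of its 3986 bases in exons. Its log2 IP over input was 0.86, 0.83 and 0.97 in control and 0.30, 0.21 and 0.12 in UV. The peak at 165861716 to 165861896 lies wholly in exons and gave 1.42, 1.85 and 2.08 in control and 2.55, 1.01 and 0.95 in UV. The peak inside it, also exonic, gave 1.39, 1.76 and 2.23 in control and 2.55, 0.96 and 0.95 in UV. In these exonic peaks UV replicate 1, with 4 input reads, lay above all control samples. UV replicates 2 and 3 lay below all control samples. Of the 4 peaks, 0 had an FDR below 0.05 in the authors' deposited table, as against 45 of all 42989, and 1 other peak, of the antisense gene at Cd3e, and 3 of Pou2f1 overlapped a member by position.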

How the data were processed

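Skin of 3 control and 3 UV-exposed samples was sequenced as input and IP libraries. The authors deposited raw read counts per gene and library, with gene lengths in bases, and a peak table which, per the file headers, holds counts per peak, a log2 fold change, a p-value and an FDR. The base of that fold change is not stated, and it followed a log2 scale when set against the peak counts. STAR 2.5.3a and GRCm38 are named in the submitters' processing notes. Not given in the sources used here were the counter, annotation, use of strand, duplicate handling, peak caller and test behind the peak table. Even numbers made up 79.5% to 83.6% of counts from 1 to 20, as when each mate counts separately.

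Counts were scaled with TMM, filtered with filterByExpr and tested with the quasi-likelihood test of edgeR 4.0.16 in R 4.3.3, with calls below 0.05 after Benjamini-Hochberg adjustment over all genes tested, and checked on simulated data. UV was compared with control in input and in IP, and IP with input within each condition in a fit of all 12 libraries with 4 group means, which also gave the change between conditions. The SE of a fitted log2 change is its absolute value divided by the square root of the F statistic of the edgeR test. Centred log2 CPM used a prior count of 2. Alternatives were library size only, no low-count filter, DESeq2 1.42.0, a replicate block and leaving out each of 6 samples. The members and lists were chosen with earlier results of these data known. Named genes were the 8 members, the other receptor segments with most reads, up to 4 genes per list with the smallest p, and the 6 genes most like the members. Some genes that this rule names are not reported here, and list counts include them. Of the marker lists, those for B and plasma cells, macrophages, mast cells, neutrophils and fibroblasts had 0, 1, 0, 0 and 2 genes lower in UV input and 0 higher with edgeR, 0, 2, 4, 1 and 4 at an unadjusted p below 0.05, and 0, 1, 2, 1 and 4 called by DESeq2. Over all genes tested in input, edgeR called 2.81% lower.

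Departures from group means of the IP and input library of one sample correlated at 0.186 to 0.398, so sample numbers pair IP with input by their labels. The same number in control and UV correlated at −0.116 to 0.044. Every pair of replicates differed beyond counting noise (chi-square per degree of freedom 48.0 to 167).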

Additional observations from a re-analysis of the deposited data

How the results depend on the processing

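Of 210 values describing the UV contrasts of the members under alternatives, 205 moved by less than 1 SD of the replicates. Those that moved more came from leaving out UV replicate 2 (Trgc1 and Trdc in IP, and Trdc between conditions) or UV replicate 1 (Trdc between conditions), and from library size only (Cd247 between conditions). Leaving out 1 of 3 samples can hardly move a group mean by 1 SD of that group, so the count of 205 is no measure of stability. The count of genes called in input, 1404, was 2152 without a low-count filter, 2601 with DESeq2 and 219 to 2100 with 1 sample left out. The 570 called in IP became 1426, 1364 and 67 to 1248 in the same order. The 3 called for the change of IP over input became 5 with library size only, 22 without the filter, 50 with DESeq2 and 0 to 7 with 1 sample left out. With the replicate block, 713 were called in input, 247 in IP and 399 for the change of IP over input, and 15298 in place of 12595 for IP over input in control and 15129 in place of 12271 in UV, and the paired fit called Trdv4 enriched in control and changed no other call of a member. The sample numbers do not pair control with UV.

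With library size only the median gene shifted by −0.25 in IP over input in control and by −0.16 in UV. Values near 0 then turned sign, with Cd3g at −0.19 and Cd3d at −0.027 in control and Cd3d at −0.079 in UV. With 1 sample left out, log2 IP over input in UV ranged from −0.31 to 0.69 for Trgc1, from −0.057 to 0.50 for Trdv4, from −0.36 to 0.11 for Cd3e and from −0.27 to 0.79 for Cd3d, and that of Trgv5 in control from −0.78 to 0.13. Trdc in UV was called without UV replicate 2 (adjusted p = 0.0451), where all its IP counts are 0, so no size is given. At most 54 reads per library in Trdc, Trgv5 and Cd3d limit what can be said of their enrichment. The cause of these shifts was not tested. Peaks assigned by position in place of the authors' gene column numbered 8 in place of 4, and 0 of the 4 passed an FDR of 0.01 as well as 0.05.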
